A study of Mus musculus with 2 samples.

Results

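The DNA break repair and Fanconi pathway genes described here are 39 named mouse genes, and all 39 had a row among the 54532 Ensembl identifiers of the count table. They were chosen by symbol. They cover homologous recombination, the Fanconi anaemia pathway, the checkpoint kinases, end joining and mismatch repair. The methionine-free group was 1 RNA-seq library of CD8+ T cells from spleens of wild-type (WT) mice, kept for 8 h in RPMI 1640 lacking methionine. The complete-medium group was 1 library of the same kind of cells kept for 8 h in complete RPMI 1640. The labels describe the donor animals as ND mice without spelling that out, and give neither their age nor how many there were. Each medium had a single library. The differences described here therefore could not be set against a spread between replicates, and p-values are not given.

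Double-strand breaks and stalled forks are repaired in several ways. Homologous recombination resects the broken end to single-stranded DNA, forms a protein filament on it with the help of BRCA1 and BRCA2, and copies the sister chromatid, so it works mainly while and after DNA is replicated. The Fanconi pathway unhooks crosslinks between DNA strands and hands the break to homologous recombination. Nonhomologous end joining ligates ends directly, works throughout the cell cycle, and also joins the gene segments of the T cell receptor in developing T cells. Activated CD8+ T cells divide quickly, and recombination genes are known to be transcribed more in dividing cells than in resting ones.

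Levels are given as counts and as CPM, which is counts for every 1000000 counts in a library after scaling. Folds are ratios of scaled counts, and the range after a fold is an exact 95% interval that covers counting error only. A gene was called lower or higher at 1.5-fold, and 2-fold and 8-fold were used as stricter limits. Library totals were 19647681 counts without methionine and 14646527 in complete medium, so 1 count was worth 0.0510 CPM without methionine and 0.0681 CPM in complete medium. CD8 T cell markers were abundant in both libraries, with 6 of 6 between the 1.5-fold limits and a summed level of 1588 CPM without methionine and 1773 CPM in complete medium. Summed levels without methionine were 14.4 CPM for 10 myeloid genes, 5.36 CPM for 3 CD4 T cell genes, 2.35 CPM for 5 natural killer cell genes and 2.09 CPM for 7 erythroid and platelet genes. In complete medium they were 8.51 CPM for the myeloid, 4.29 CPM for the CD4 T cell, 2.59 CPM for the natural killer cell and 1.5 CPM for the erythroid and platelet genes. The 7 B cell genes summed to 130 CPM without methionine and 211 CPM in complete medium, and none of them was at 0. Of the B cell genes, 4 of 7 were at least 1.5-fold lower without methionine, and Ighm held nearly all of their level, with 120 CPM without methionine and 196 CPM in complete medium. The B cell genes' part in the differences below was not tested. In bulk RNA, fewer cells of a type and less RNA per cell cannot be told apart.

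Of the 39 genes, 25 were at least 1.5-fold lower without methionine and none was at least 1.5-fold higher. Over the 13041 genes averaging 10 or more counts, 18.1% were that much lower and 15.7% that much higher. All 39 genes passed this minimum, so no member was lost to it. At 2-fold, 23 of the 39 were lower and none higher, where 9.49% of all genes were lower and 5.89% higher. At 8-fold, 11 were lower, where 1.43% of all genes were, and none was higher, where 0.299% of all genes were. The median log2 difference of the 39 genes was -1.42, and that of all 13041 genes was 0.04. The summed level was 1053 CPM without methionine and 2120 CPM in complete medium.

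The genes spread widely. The 11 genes past 8-fold were Rad54l, Bard1, Eme1, Fanci, Fancd2, Rad54b, Brca1, Exo1, Rad51ap1, Brip1 and Dna2, between 9.05-fold and 21.1-fold lower. A further 12 lay between 2.09-fold and 6.28-fold lower, and Fancg and Fancm were 1.87-fold and 1.52-fold lower. Of the 14 genes inside the 1.5-fold limits, 9 had an interval wholly below a ratio of 1, 2 had an interval that held 1, and 3 had an interval wholly above it. Those 3 were Mus81, Trp53bp1 and Lig4. The nearest genes on either side of the downward 1.5-fold limit were Fancm, at 1.52-fold lower, and Fancl, at 1.43-fold lower. Nearest the upward limit was Lig4, at a ratio of 1.43 with an interval (1.18 to 1.74) that reached past 1.5.

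**Figure D1:**
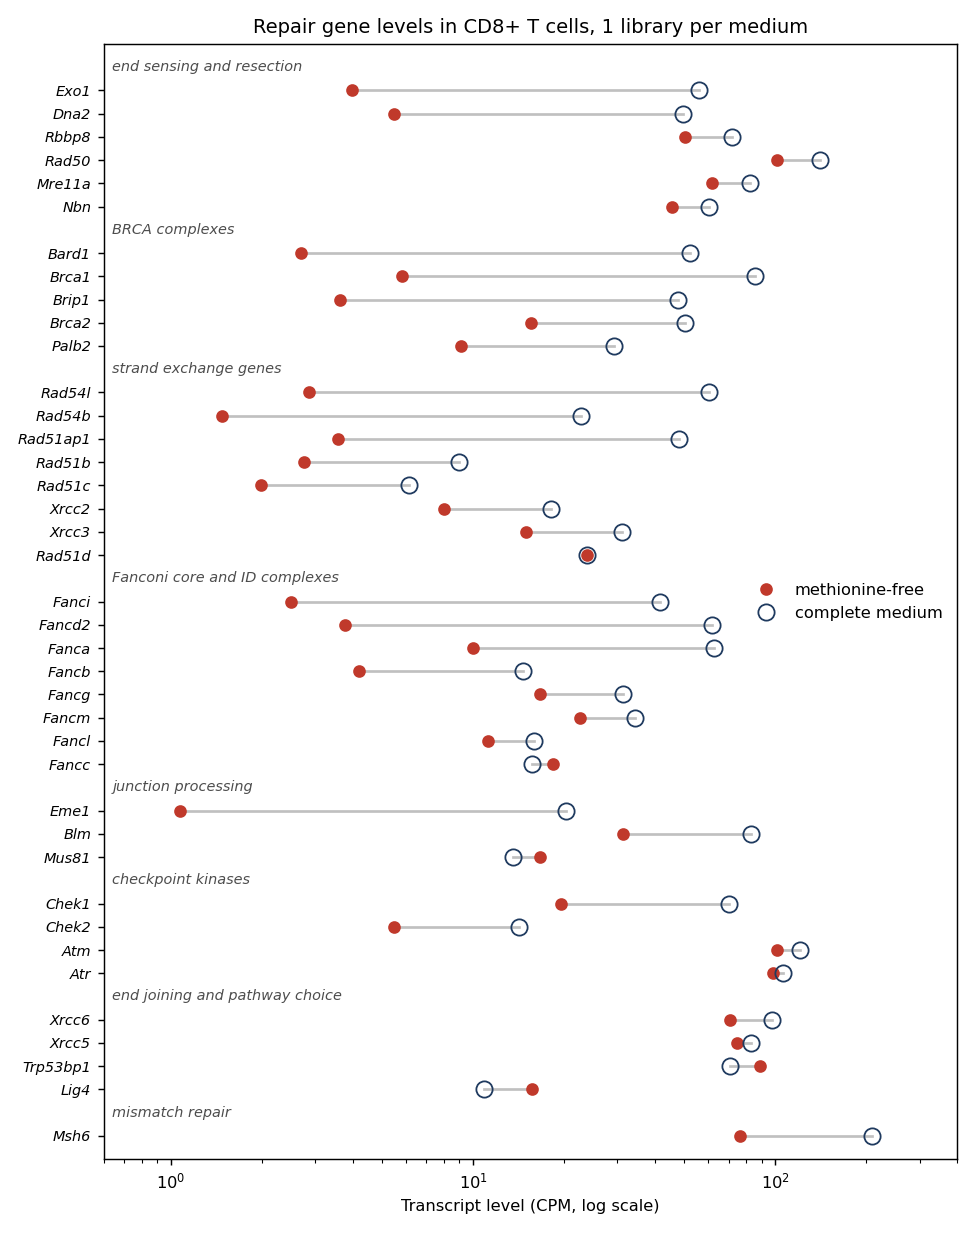
Transcript level of each of the 39 genes in CPM on a log scale, with the methionine-free library as filled points and the complete-medium library as open rings, grouped by role and ordered by difference. The BRCA complex genes sit far apart between media, while the 4 end joining and pathway choice genes lie close together.

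Many of the genes were lower together, so their promoters were compared, taken from RefSeq (GRCm38.p6) as 300 bases from 250 before to 50 after the transcription start. Promoters were found for 31 of the 39 genes; Exo1, Fancd2, Nbn, Rad50, Rad51d, Rad54b, Rbbp8 and Xrcc2 had none in the table. They were searched on both strands for E2F-type sites (TTTGGCGC, TTTCGCGC, TTTCCCGC, TTTGCCGC, TTGGCGGG or TTCCCGCC), which E2F factors bind in genes of DNA replication. They were also searched for the cell cycle homology region, CHR (TTTGAA or TTCGAA), the CCAAT box (CCAAT) and an NRF1-type site (CGCATGCG). Some E2F letter strings overlap each other, and TTGGCGGG can share bases with a CCAAT box on the other strand. An E2F string was found in 12 of 31 promoters, or 38.7%, against 9.23% of the 9267 promoters of genes past the count minimum and 4.78% of all 27025 promoters. By size of difference, 3 of 8 promoters of genes at least 8-fold lower held one, as did 8 of 13 between 1.5-fold and 8-fold lower and 1 of 10 inside the 1.5-fold limits. That 1 was Xrcc6, whose RefSeq start is 850 bases from the main GENCODE start. Fancl, also inside the limits, has a RefSeq start 949 bases from it. The stretches searched for Xrcc6 and Fancl therefore do not reach the main start. A CCAAT box was found in 18 of 31, or 58.1%, against 39.1% of promoters past the minimum. CHR letters were in 3 of 31, or 9.68%, against 13.7%, and the NRF1 letters in 2 of 31, or 6.45%, against 4.19%. These matches describe letters and are not shown to be bound.

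Promoters of the 3 genes with the lowest difference, Rad54l, Bard1 and Eme1, are printed with that of Msh6, which had the most E2F matches and was chosen for that after its values were seen, and that of Lig4, which had the highest difference. Capitals mark the matched letters. Rad54l lies at chr4:116123640-116123939 and holds a CCAAT box at positions -51 to -47 relative to the start. Bard1 lies at chr1:71102923-71103222, with CHR letters at positions -242 to -237 and an E2F string at -209 to -202, and its RefSeq start is 174 bases from the main GENCODE start. Eme1 lies at chr11:94653694-94653993, with CHR letters at positions 22 to 27, after a start that is 221 bases from the main GENCODE start. These CHR letters match on the strand opposite to the one printed, so they appear as TTCAAA. Msh6 lies at chr17:87974800-87975099, with a CCAAT box and with E2F letters at 2 places, counted as 3 matches because TTTCCCGC and TTCCCGCC overlap. Its E2F match at -140 to -133 and its CCAAT box are on the strand opposite to the one printed. They appear as CCCGCCAA and ATTGG. Lig4 lies at chr8:9976262-9976561 and held none of the letters searched. All but Msh6 are on the minus strand, and each is printed 5′ to 3′ on its gene's strand.
Rad54l: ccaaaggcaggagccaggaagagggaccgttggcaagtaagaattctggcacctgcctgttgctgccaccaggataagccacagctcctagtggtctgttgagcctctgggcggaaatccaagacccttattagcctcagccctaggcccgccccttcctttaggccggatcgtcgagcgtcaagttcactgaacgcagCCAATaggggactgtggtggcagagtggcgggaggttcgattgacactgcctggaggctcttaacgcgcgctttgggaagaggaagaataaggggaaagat
Bard1: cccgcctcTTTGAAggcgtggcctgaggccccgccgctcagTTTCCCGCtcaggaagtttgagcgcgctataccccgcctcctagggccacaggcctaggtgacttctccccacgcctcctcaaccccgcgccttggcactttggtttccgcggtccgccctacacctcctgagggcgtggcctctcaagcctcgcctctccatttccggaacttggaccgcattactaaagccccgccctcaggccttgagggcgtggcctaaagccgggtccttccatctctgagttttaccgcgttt
Eme1: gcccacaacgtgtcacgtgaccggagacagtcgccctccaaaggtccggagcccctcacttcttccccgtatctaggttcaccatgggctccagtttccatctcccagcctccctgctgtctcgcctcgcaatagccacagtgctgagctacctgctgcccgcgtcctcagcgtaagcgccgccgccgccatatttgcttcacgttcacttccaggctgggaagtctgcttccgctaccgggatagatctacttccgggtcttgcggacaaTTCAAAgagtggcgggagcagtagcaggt
Msh6: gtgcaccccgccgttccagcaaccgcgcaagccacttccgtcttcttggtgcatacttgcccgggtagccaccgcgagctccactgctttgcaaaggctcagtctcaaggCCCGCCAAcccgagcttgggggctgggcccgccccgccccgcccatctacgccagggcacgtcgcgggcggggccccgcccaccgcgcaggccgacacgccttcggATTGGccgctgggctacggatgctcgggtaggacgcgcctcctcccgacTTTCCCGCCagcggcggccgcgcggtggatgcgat
Lig4: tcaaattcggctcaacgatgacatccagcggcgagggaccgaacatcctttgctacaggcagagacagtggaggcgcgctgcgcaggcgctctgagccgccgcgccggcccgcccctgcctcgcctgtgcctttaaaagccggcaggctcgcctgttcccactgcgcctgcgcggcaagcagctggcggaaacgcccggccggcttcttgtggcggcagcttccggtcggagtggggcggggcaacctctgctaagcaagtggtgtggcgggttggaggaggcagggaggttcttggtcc

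The BRCA genes had the lowest median of the roles, and all 5 were at least 2-fold lower, where 9.49% of all genes were. Brca1 encodes the ubiquitin ligase that promotes resection and the steps after it, and had 114 counts without methionine and 1258 in complete medium, at levels of 5.82 CPM without methionine and 85.7 CPM in complete medium. It was 14.7-fold lower (12.1 to 18.0). Its obligate partner gene Bard1 had 53 counts without methionine and 764 in complete medium, 19.2-fold lower (14.5 to 25.9). Brip1, which encodes the BRCA1-bound helicase also known as FANCJ, had 71 counts without methionine and 701 in complete medium, 13.2-fold lower (10.3 to 17.1). Brca2, whose product acts on resected DNA, was less far apart, with 304 counts without methionine and 739 in complete medium, 3.24-fold lower (2.83 to 3.72). Palb2 encodes the bridge between BRCA1 and BRCA2. It had 179 counts without methionine and 430 in complete medium, 3.21-fold lower (2.69 to 3.84). Together the 5 genes made up 3.49% of the counts of the 39 genes without methionine and 12.5% in complete medium.

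End sensing and resection genes formed separate sets. The MRE11-RAD50-NBN complex senses ends and starts resection, and its 3 genes were close to each other. Rad50 had 1981 counts without methionine and 2059 in complete medium, 1.39-fold lower (1.30 to 1.48). Mre11a, the nuclease gene, was 1.34-fold lower (1.23 to 1.45), and Nbn, whose product recruits ATM, was 1.33-fold lower (1.21 to 1.46). Rbbp8 encodes CtIP, the cofactor that activates MRE11, and was 1.42-fold lower (1.30 to 1.55). The genes of the long-range resection nucleases stood far apart from these. Exo1 had 78 counts without methionine and 818 in complete medium, 14.0-fold lower (11.1 to 17.9), and Dna2 had 107 counts without methionine and 726 in complete medium, 9.05-fold lower (7.38 to 11.2).

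In strand exchange, 7 of 8 genes were at least 2-fold lower. Rad54l encodes the DNA translocase that aids invasion of the sister chromatid, and lies on chromosome 4 (ENSMUSG00000028702, 116094264 to 116123690, minus strand). It had 56 counts without methionine and 887 in complete medium, 21.1-fold lower (16.1 to 28.2), the largest fold of the 39 genes. The related Rad54b had 29 counts without methionine and 333 in complete medium, 15.3-fold lower (10.5 to 23.2). It shares exon bases with Fsbp on the same strand, which had 1 count without methionine and 26 in complete medium, so reads could be split between them. Rad51ap1, whose product stimulates strand exchange, had 70 counts without methionine and 705 in complete medium, 13.4-fold lower (10.5 to 17.4).

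Rad51b, Rad51c, Rad51d, Xrcc2 and Xrcc3 encode related proteins that stabilise the recombination filament, and were less far apart than these genes. Rad51b, with 54 counts without methionine and 132 in complete medium, was 3.26-fold lower (2.36 to 4.56). Rad51c, with 39 counts without methionine and 90 in complete medium, was 3.08-fold lower (2.09 to 4.61) and had the lowest level per kilobase of annotated exon in complete medium, 1.40 CPM per kb. Xrcc2, with 157 counts without methionine and 266 in complete medium, was 2.26-fold lower (1.85 to 2.77). Xrcc3, whose product pairs with RAD51C, had 291 counts without methionine and 456 in complete medium, 2.09-fold lower (1.80 to 2.43). Rad51d did not differ beyond counting error, with 466 counts without methionine and 350 in complete medium and a ratio of 0.998 (0.867 to 1.15). RAD51B, RAD51C, RAD51D and XRCC2 form a complex, and Rad51d was the one gene of these 4 within the 1.5-fold limits.

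The Fanconi genes ranged from 16.6-fold lower for Fanci to a ratio of 1.18 for Fancc. Fancd2 and Fanci encode the clamp that is ubiquitinated at crosslinks. Fancd2 had 74 counts without methionine and 906 in complete medium, 16.3-fold lower (12.9 to 21). Fanci had 49 counts without methionine and 609 in complete medium, 16.6-fold lower (12.4 to 22.7). The core complex that ubiquitinates the clamp was less uniform. Fanca was 6.28-fold lower (5.37 to 7.36), with 10.0 CPM without methionine and 62.8 CPM in complete medium, and Fancb on the X chromosome was 3.48-fold lower (2.69 to 4.55). Fancg was 1.87-fold lower (1.62 to 2.17), and Fancm, the translocase gene that anchors the core complex to DNA, 1.52-fold lower (1.33 to 1.73). Fancl, the ubiquitin ligase subunit gene, lay just inside the limit at 1.43-fold lower (1.18 to 1.72). Fancc had 361 counts without methionine and 230 in complete medium, a ratio of 1.18 whose interval (0.994 to 1.39) held 1.

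The genes of the junction enzymes divided within a single complex. EME1 and MUS81 are the partner subunits of a nuclease that cuts branched DNA. Eme1 (ENSMUSG00000039055, chromosome 11, 94644996 to 94653964, minus strand) had 21 counts without methionine and 298 in complete medium, 18.9-fold lower (12.2 to 31.0). Mus81 had 326 counts without methionine and 199 in complete medium, a ratio of 1.23 (1.03 to 1.47). Per kilobase of exon, the Mus81 level was 12.0 times the Eme1 level without methionine and 0.517 times it in complete medium. Blm, which encodes the helicase that dissolves junctions, had 611 counts without methionine and 1222 in complete medium, 2.67-fold lower (2.42 to 2.95).

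Of the checkpoint kinases, the apical kinase genes stayed inside the limits and the effector kinase genes were lower. Atm, which responds to breaks, had 101 CPM without methionine and 121 CPM in complete medium, 1.20-fold lower (1.12 to 1.28). Atr, which responds to single-stranded DNA, had 98.0 CPM without methionine and 106 CPM in complete medium, 1.08-fold lower (1.01 to 1.16). Chek1, the target of ATR that holds back replication and mitosis, had 382 counts without methionine and 1031 in complete medium, 3.60-fold lower (3.20 to 4.06). Chek2, the target of ATM, had 107 counts without methionine and 209 in complete medium, 2.61-fold lower (2.05 to 3.32).

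None of the 4 end joining and pathway choice genes was past 1.5-fold, and 8627 of all 13041 genes also lay inside these limits. Xrcc5 and Xrcc6 encode the Ku80 and Ku70 subunits of the ring that caps broken ends. Xrcc5 had 1463 counts without methionine and 1216 in complete medium, 1.11-fold lower (1.03 to 1.20), and Xrcc6 had 1390 counts without methionine and 1433 in complete medium, 1.38-fold lower (1.28 to 1.48). Trp53bp1 encodes 53BP1, which shields ends from resection, and had 1745 counts without methionine and 1038 in complete medium, a ratio of 1.26 (1.17 to 1.36). Lig4, the ligase gene of end joining (ENSMUSG00000049717, chromosome 8, 9969049 to 9977686, minus strand), had the highest ratio of the 39 genes at 1.43 (1.18 to 1.74), with 305 counts without methionine and 160 in complete medium. These 4 genes held 23.8% of the counts of the 39 genes without methionine and 12.4% in complete medium. Their summed level was not higher without methionine, at 250 CPM against 262 CPM in complete medium. The sum of all 39 genes was 1053 CPM without methionine and 2120 CPM in complete medium. Msh6, the mismatch recognition gene, had 1498 counts without methionine and 3049 in complete medium, 2.72-fold lower (2.55 to 2.89). Per kilobase of exon, Msh6 ranked first of the 39 in complete medium, at 47.8 CPM per kb. Without methionine Xrcc5 ranked first, at 29.2 CPM per kb, and Msh6 was at rank 4, with 17.6 CPM per kb.

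Genes whose proteins act together were set side by side in 17 pairs, dividing the ratio of the first gene by that of the second, with an exact 95% interval for counting error. The interval held 1 for 10 pairs and excluded it for 7. Brca2 over Palb2 gave 0.988 (0.789 to 1.24), Fancd2 over Fanci 1.02 (0.687 to 1.51) and Mre11a over Rad50 1.04 (0.937 to 1.15). Brca1 over Bard1 gave 1.31 (0.923 to 1.87) and Brca1 over Brip1 0.895 (0.650 to 1.24). These close pairs lay at very different folds, from 1.34-fold lower for Mre11a to 19.2-fold lower for Bard1. The widest gap was Mus81 over Eme1, at 23.2 (14.3 to 39.3). Atr over Chek1 gave 3.33 (2.90 to 3.82), Atm over Chek2 2.18 (1.70 to 2.80) and Rad51d over Xrcc2 2.25 (1.76 to 2.89). Atr and Atrip, its obligate partner gene, did not differ beyond counting error, at 0.982 (0.858 to 1.12). Fancl over Ube2t, the E2 enzyme gene that works with it, gave 2.31 (1.76 to 3.04). Lig4 and Xrcc4 gave 1.25 (0.952 to 1.64), and Xrcc6 over Prkdc, the gene of the DNA-dependent kinase, 0.783 (0.700 to 0.875). Xrcc5 over Xrcc6 gave 1.24 (1.11 to 1.38), so the Ku genes differed beyond counting error while both stayed within the 1.5-fold limits. Rad50 over Nbn gave 0.957 (0.854 to 1.07), Rad51b over Rad51c 0.944 (0.562 to 1.59) and Rad51c over Xrcc3 0.679 (0.441 to 1.03).

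**Figure D2:**
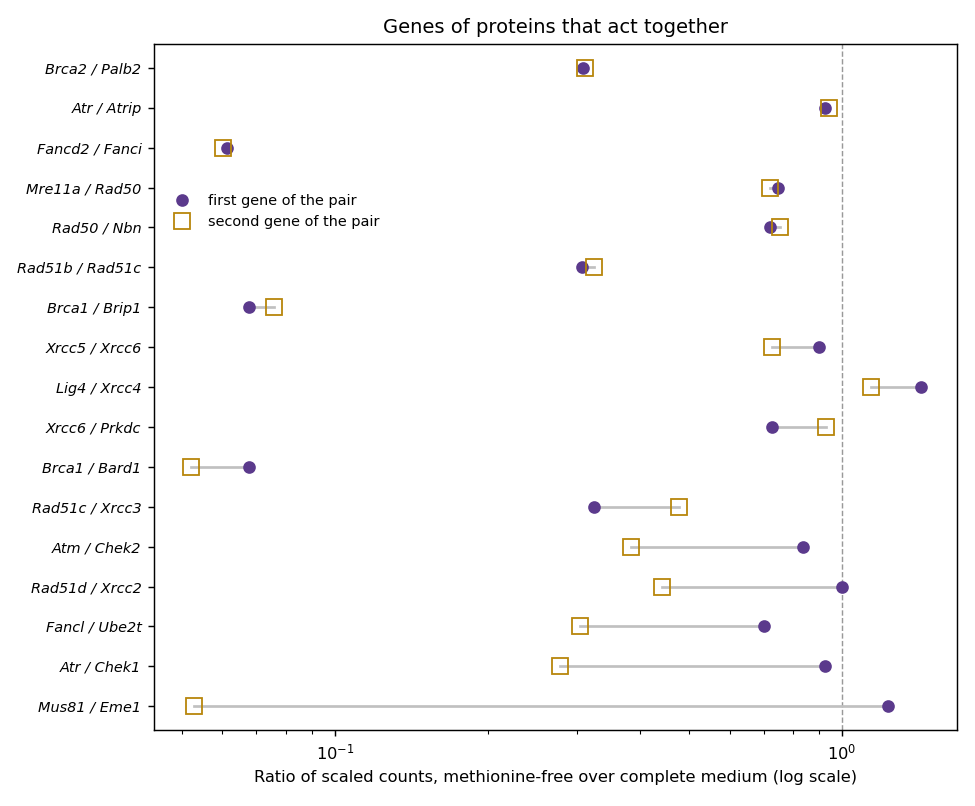
Ratio of scaled counts, methionine-free over complete medium, on a log scale for the first gene (filled circles) and the second gene (open squares) of 17 pairs, ordered from the closest pair at the top. Brca2 and Palb2 lie together, while Mus81 lies right of 1 and Eme1 near 0.0528.

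The other genes of the repair pathways lay closer to the background, taken from lists that hold none of the 39. Of 146 measured genes, 45 passed 1.5-fold downward, or 30.8%, and 9 upward, or 6.16%, and the median log2 difference was -0.20. In other mismatch repair genes, with the clamp and clamp loader among them, 8 of 13 were lower and none higher, and the median was -1.07. In other checkpoint and break signalling genes, 12 of 23 were lower and 1 higher, and the median was -0.64. Of 42 other homologous recombination and Fanconi genes, 12 were lower and 2 higher, and the median was -0.18. Of 17 other end joining genes, 3 were lower and 1 higher. Of 20 nucleotide excision repair genes, 1 was lower and 2 higher, and of 14 translesion and direct reversal genes 2 were lower and 1 higher. Of 17 base excision repair genes, 7 were lower and 2 higher.

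**Figure D3:**
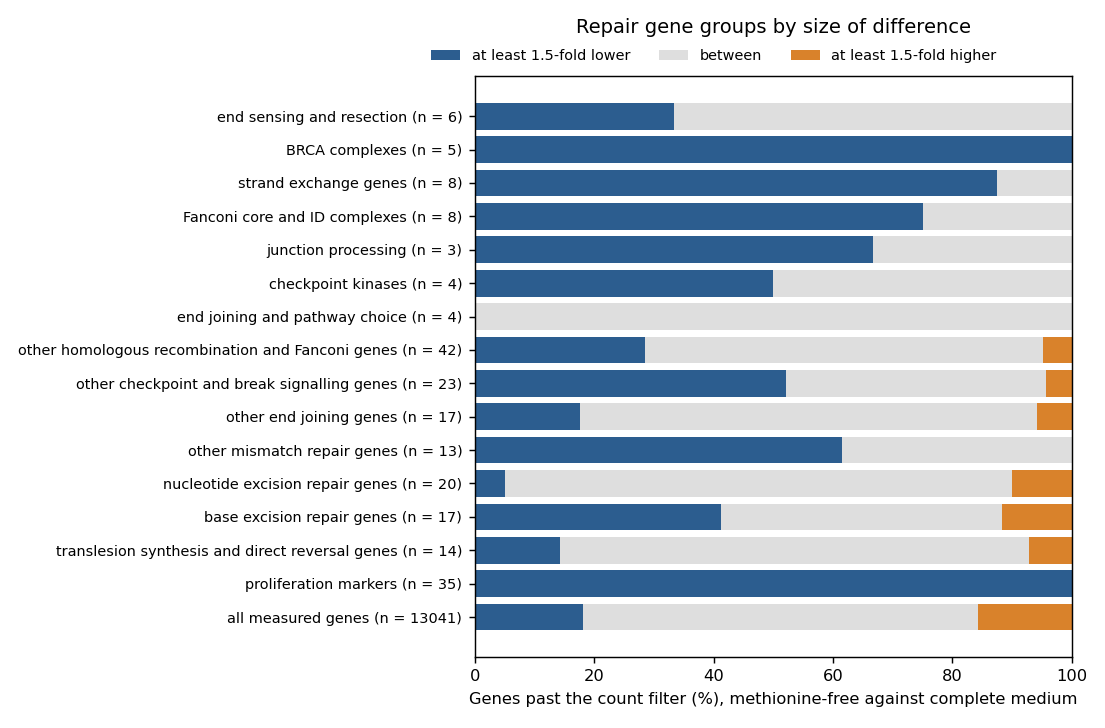
Percent of measured genes at least 1.5-fold lower, between the limits and at least 1.5-fold higher without methionine, for the roles of the break repair and Fanconi genes (the single mismatch repair gene left out), 7 lists of other repair genes, the proliferation markers and all 13041 genes. The BRCA complexes reach 100% lower, as do the proliferation markers, against 18.1% of all genes.

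Markers of dividing cells differed in the same direction. All 35 proliferation markers, none of them among the 39 genes, lay past 1.5-fold downward without methionine, and their median log2 difference was -2.94. Their summed level was 1866 CPM without methionine and 7499 CPM in complete medium. Mki67 was 22.9-fold lower (20.7 to 25.3), Top2a 14.4-fold lower (13.5 to 15.4) and Ccna2 40.1-fold lower (31.1 to 52.7). The part of these markers in the differences of the 39 genes was not tested. Of 19 measured p53 target genes, which answer DNA damage, 3 passed 1.5-fold upward, or 15.8%, near the 15.7% of all genes. Downward, 1 passed, or 5.26%, against 18.1% of all genes, and the median was 0.21. The lower gene was Cdkn1a, the cell cycle inhibitor gene, at 91.7 CPM without methionine and 147 CPM in complete medium, and Mdm2, whose product degrades p53, had 121 CPM without methionine and 98.3 CPM in complete medium.

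**Figure D4:**
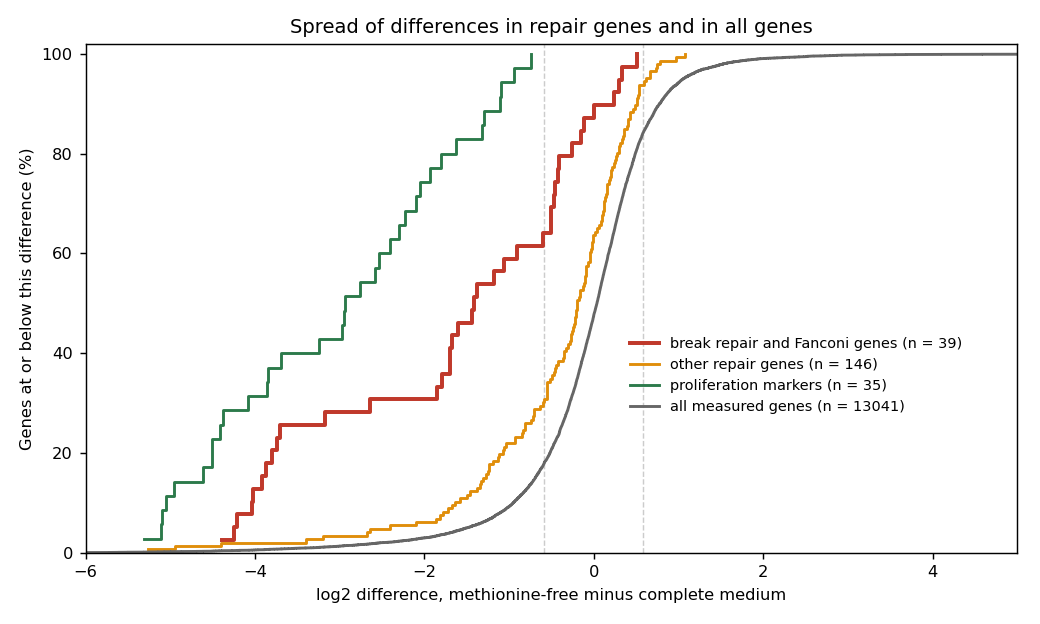
Percent of genes at or below each log2 difference, methionine-free minus complete medium, for the 39 break repair and Fanconi genes, 146 other repair genes, 35 proliferation markers and all 13041 genes, with dashed lines at 1.5-fold. By median, the 39 genes (-1.42) lie between the proliferation markers (-2.94) and the other repair genes (-0.20).

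By level per kilobase in complete medium, both the first-ranked gene, Msh6, and the last, Rad51c, were at least 1.5-fold lower. The 11 genes past 8-fold lay between rank 10, Brca1, and rank 31, Rad54b. Across genes, the log2 difference and the log2 level per kilobase in complete medium had a Pearson correlation of -0.05 (n = 39 genes, all from the same pair of libraries). That level is itself a term of the difference, and a correlation does not show a cluster at middle levels. For 15 of the 39 genes, an exon overlapped that of a counted gene running the other way. The sources used here do not say if strand was used in counting, so reads of such neighbours may be mixed. Rad54l overlaps Lrrc41, which had 701 counts without methionine and 384 in complete medium. Fanci overlaps Polg, with 1411 counts without methionine and 1295 in complete medium. Eme1 overlaps Lrrc59, with 4823 counts without methionine and 4266 in complete medium. Trp53bp1 overlaps Tubgcp4 over 2130 exon bases, with 628 counts without methionine and 504 in complete medium. Of the 24 genes with no such overlap, 17 were at least 1.5-fold lower and none higher. Among all 9714 measured genes without such an overlap, 19.1% were at least 1.5-fold lower. No transcript of a counted gene elsewhere in the genome matched a transcript of the 39 genes at 95% identity over 300 or more bases.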

How the data were processed

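Bulk RNA-seq was done on splenic CD8+ T cells. Per the labels' protocols, RNA was extracted with TRIzol and made into libraries with 1 of 2 kits, for whole RNA or for mRNA, and the kit of each library is not stated. The authors deposited 1 table of raw counts per Ensembl gene, on the mm10 build, per the submitters' processing notes. The sources used here do not give the aligner, the counter or the use of strand. The column named for the methionine-free culture and the one named for the control were matched to samples by the samples' descriptions. These column names end in 1 for methionine-free and 2 for control, and nothing in the labels says what these numbers stand for.

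Symbols and exons came from GENCODE M21 (GRCm38, the assembly of mm10), which matched 54495 identifiers. Counts were scaled with TMM (edgeR 4.0.16, R 4.3.3; factors 0.997 without methionine and 1.003 in complete medium). Log2 differences, methionine-free minus complete, used a prior count of 0.5. Intervals are exact conditional (Clopper-Pearson) intervals from scipy 1.17.1; for pairs, the exact conditional odds ratio was used. The intervals cover counting error only and take each count as independent. No molecular identifiers are named, so copied reads cannot be told apart and the intervals may be too narrow. Similar transcripts were searched with BLAST 2.17.0. The steps were tested on simulated counts that held counting error only, so this test does not cover variation between libraries. The genes, lists, pairs and motifs were chosen with earlier results of these data known. All members, the partners in the pairs, Mki67, Top2a, Ccna2, Cdkn1a and Mdm2 are named by a fixed rule, and a few further pairs under it are not reported here; Ighm, Fsbp, the overlapping genes and the RNAs set against the kits were named after their values were seen. In the other repair lists, 3 symbols had no row.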

Additional observations from a re-analysis of the deposited data

How the results depend on the processing

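No paired analysis was possible because there was 1 library per medium and the numbers that end the deposited column names, 1 for methionine-free and 2 for control, are not shared; leaving out a replicate was impossible for the same reason. Library totals, DESeq2 1.42.0 size factors and upper-quartile factors gave 25 genes at least 1.5-fold lower, 23 at least 2-fold lower and none higher, as did no minimum count, under which 30.1% of 21114 genes were at least 1.5-fold lower, in place of 18.1%. The share of all genes at least 1.5-fold lower was 18.3% with library totals, 18.2% with DESeq2 factors and 17.6% with upper-quartile factors. With a mean of at least 100 counts, 37 genes were measured, of which 23 were at least 1.5-fold lower and 21 at least 2-fold lower. Of all 9522 genes past that mean, 13.7% were at least 1.5-fold lower. After thinning the deeper library, 25 of the 39 were at least 1.5-fold lower and 24 at least 2-fold lower, where 19.0% of 12760 genes were at least 1.5-fold lower. The median log2 difference ranged from -1.51 to -1.38 over all alternatives. Without the 15 genes that overlap on the opposite strand, 17 were at least 1.5-fold lower and the number at least 2-fold lower was 15, since fewer genes were tested. Of all 9714 genes without such an overlap, 19.1% were at least 1.5-fold lower. Where the whole counting interval had to lie past the fold, 24 were at least 1.5-fold lower and 21 at least 2-fold lower, while other repair genes at least 1.5-fold higher numbered 2 in place of 9. By that same change 9.72% of all genes were at least 1.5-fold lower. The shares of all genes at least 2-fold lower, or higher at either fold, were not computed under these alternatives. The counts at those limits, with the 2 in place of 9, therefore stand without a background and are not a result about repair genes. None of the 256 single-gene ratios listed under these alternatives left its own counting interval. The minimum counts and the overlap filter cannot change a gene's ratio, and other scale factors move all ratios alike. This outcome was therefore largely fixed in advance and says little about single genes. The kit of each library is not known, and its part was not tested. Of 12 RNAs that can differ between kits of these kinds, 5 were measured, and 2 were at least 1.5-fold lower, 1 higher and 2 between. Rn7sk, a short RNA without a poly(A) tail, had 115 counts without methionine and 11 in complete medium, 7.84 times as high (4.22 to 16.1). Histone RNAs mostly lack that tail too, and are made in S phase. Hist1h4d had 13 counts without methionine and 50 in complete medium, 5.13-fold lower (2.75 to 10.3), and Hist1h2ae, under the minimum count, had 0 without methionine and 11 in complete medium. Hist1h1e had 10 counts without methionine and 13 in complete medium, and its interval held 1. Malat1 had a ratio of 0.986 (0.920 to 1.06) and Neat1 1.08 (1.01 to 1.15).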
